A study of Arabidopsis thaliana with 9 samples.

Results

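The genes described here are 36 Arabidopsis loci of the splicing machinery, taken by name from 33602 loci of the count table. They are 18 serine/arginine-rich (SR) proteins of the SR, RS, SC35 and SCL, RSZ and RS2Z subfamilies, the SR-like proteins SR45 and SR45a, the splice-site factors U1-70K and U2AF, the core spliceosome proteins PRP8, BRR2A, LSM8, SKIP, PRL1 and CDC5, and the RNA-binding regulators PTB1, PTB2, PTB3, GRP7 and GRP8. All 36 passed the filter on low counts and were among the 20668 genes tested. RNA was sequenced from whole seedlings, roots and shoots together, that had been grown for 6 days at 20 °C on plates after 3 days of stratification. The 3 genotypes were emb1579-1, emb1579-3 and the wild type Col-0, and by the labels both lines are in the Col-0 background and carry mutations in EMB1579, also named RSA1. The sources used here do not give the lesion or the zygosity of either line. The study asked how EMB1579 affects expression of genes for root growth, and the splicing genes bear on it because the EMB1579 protein has been linked to both transcription and pre-mRNA splicing in earlier work.

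The spliceosome removes introns in an ordered cycle. The U1 particle, with U1-70K, recognises the 5′ splice site, U2AF binds the pyrimidine tract and the 3′ splice site, and the U4/U6.U5 particle then joins, with PRP8 at its centre and the helicase BRR2A unwinding U4 from U6. SR proteins bind exons and recruit these particles, while PTB and the glycine-rich proteins GRP7 and GRP8 shift the choice of splice sites. Many of these genes are themselves alternatively spliced in plants. The values below are reads per gene, so they give the amount of transcript and not its splicing, and in whole seedlings fewer cells of a type and less RNA per cell cannot be told apart.

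The 250 bases upstream of the annotated start of 4 members are printed here because 2 of these genes, BRR2A and PRL1, passed the test against Col-0, and the other 2, GRP7 and GRP8, were the most abundant. The sequences are from RefSeq, assembly TAIR10.1, read 5′ to 3′ on the strand of the gene. They cover chr1:7310272-7310521 on the minus strand for BRR2A, chr4:9023416-9023665 on the plus strand for PRL1, chr2:9266558-9266807 on the minus strand for GRP7 and chr4:18275217-18275466 on the minus strand for GRP8, and no other gene lies in these windows. Capitals mark the site II element TGGGCC, its variant TGGGCT and the evening element AAAATATCT, on either strand.
BRR2A: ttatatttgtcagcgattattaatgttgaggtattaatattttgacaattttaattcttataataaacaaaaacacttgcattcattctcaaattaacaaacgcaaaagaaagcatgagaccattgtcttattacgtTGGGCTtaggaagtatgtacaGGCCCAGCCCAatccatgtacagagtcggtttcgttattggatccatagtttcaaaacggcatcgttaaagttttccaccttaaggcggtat
PRL1: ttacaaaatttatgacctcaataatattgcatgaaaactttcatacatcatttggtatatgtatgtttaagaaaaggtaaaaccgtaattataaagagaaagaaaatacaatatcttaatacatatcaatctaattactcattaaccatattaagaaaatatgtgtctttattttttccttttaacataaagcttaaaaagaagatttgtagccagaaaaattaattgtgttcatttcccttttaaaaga
GRP7: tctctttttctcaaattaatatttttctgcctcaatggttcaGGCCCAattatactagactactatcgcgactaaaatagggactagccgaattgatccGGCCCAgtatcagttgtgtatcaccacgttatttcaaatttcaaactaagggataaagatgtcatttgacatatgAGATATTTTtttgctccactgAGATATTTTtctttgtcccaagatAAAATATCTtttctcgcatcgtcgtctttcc
GRP8: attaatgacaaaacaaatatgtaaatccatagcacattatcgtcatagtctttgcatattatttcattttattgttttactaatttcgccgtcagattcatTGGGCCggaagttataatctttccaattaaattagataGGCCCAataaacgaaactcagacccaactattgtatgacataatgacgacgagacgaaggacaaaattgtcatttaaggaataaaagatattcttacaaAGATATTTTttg
BRR2A held TGGGCC once and TGGGCT at 2 places, and its TGGGCC shares a base with a neighbouring TGGGCT. GRP7 and GRP8 each held TGGGCC at 2 places, and the evening element stood at 3 places in GRP7 and at 1 place in GRP8. PRL1 held none of the letters searched. Over all 36 members, 18 held TGGGCC on either strand of this window, against 16.2% of 20099 tested protein-coding nuclear genes, and 47 of 109 other splicing genes (43.1%) held it. The count was 4 of 5 for the PTB and GRP genes, 3 of 4 for the RS genes, 2 of 2 for RS2Z, 2 of 3 for RSZ, 3 of 6 for the U5, U6 and MAC proteins and 1 of 2 for the SR-like proteins. It was 1 of 4 for the SR genes proper, 1 of 5 for the SC35 and SCL genes and 1 of 5 for U1-70K and U2AF. TGGGCT was in 13 members (36.1%), against 2811 of the 20099 genes. The evening element was in LSM8, GRP7 and GRP8 (8.33%, against 2.5%). The other motifs were near the share of all genes: AAACCCTA in 1 member (2.78%, against 3.58%), CACGTG in 2 (5.56%, against 7.22%) and TTCNNGAA in 3 (8.33%, against 7.49%). A match is a description of letters and not a bound site.

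The results rest on 3 libraries labelled emb1579-1, 3 of emb1579-3 and 2 of Col-0, with 24.1 to 37.5 M counts each, of which 45.8% to 49.6% fell on chloroplast and mitochondrial genes. The count columns taken for emb1579-3 carry another number than its label and were assigned to it by elimination. Col-0 replicate 3 held 1.18 M counts, correlated with no other library beyond 0.315, and was left out. In Col-0 replicate 2, 4.93% of nuclear loci had no count, against 28.3% to 30.7% in the other libraries used. This library is in every comparison with Col-0, and the part of this in the values below was not tested. By the series' text, libraries of the same genotype are biological replicates, and the tests set each difference against the spread between these samples. EMB1579 (AT2G03150, chr2:951888-959236, plus strand) was at 46.8, 48.9 and 47.7 CPM (counts as a share of the scaled library total) in the libraries labelled emb1579-1, at 2.11, 1.08 and 1.13 CPM in emb1579-3 and at 48.6 and 48.9 CPM in Col-0. By the test, EMB1579 transcript did not differ from Col-0 in the libraries labelled emb1579-1, with a log2 fold change of -0.03 (standard error, SE, 0.11, adjusted p = 0.9), and the transcript was lower in emb1579-3, with -5.07 (SE 0.15, adjusted p = 6.91e-12). Of 5 root markers 2 were lower in both lines, PYK10 (log2 -0.89 and -1.04) and CASP1 (-1.21 and -1.06), while COBL9 (-0.10 and 0.07), EXPA7 (0.12 and -0.01) and SCR (0.04 and 0.08) did not pass and overlapped Col-0. The 5 levels, mostly PYK10, summed to 642 to 830 CPM in the libraries labelled emb1579-1 and 557 to 769 CPM in emb1579-3, against 1172 to 1414 CPM in Col-0. None of 4 shoot markers passed the test, with sums of 8460 to 9895 and 8659 to 9664 CPM against 8956 to 10558 CPM in Col-0, and markers of seed and flower, CRU1, AP3 and AG, had 1 to 5 counts in the libraries of the lines and 1 to 13 in Col-0. The part that tissue composition plays in the values below was not tested.

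Seedlings carried high levels of most of these transcripts. Per kb of exon, 34 of 36 members were above the median of 20431 tested nuclear genes, and the median member stood at percentile 84.1. GRP7, a glycine-rich RNA-binding protein of the circadian clock's output, was the most abundant at 2051 CPM per kb in the libraries labelled emb1579-1, 2132 in emb1579-3 and 2376 in Col-0. GRP8, its close relative, followed at 490.4, 528 and 539 CPM per kb in the same order of genotypes. Every other member lay at 48.8 CPM per kb or below in every library. PRP8, the scaffold of the catalytic centre, averaged 42.6 over the genotypes and BRR2A 39.1. The lowest were SR34b at 4.66, RS31a at 2.53 and SCL28 at 0.689 CPM per kb. The order is not sharp in between: of 35 neighbouring ranks, 31 overlapped over the 8 libraries, and the 4 that stood apart were GRP7 above GRP8, GRP8 above PRP8, SR34b above RS31a and RS31a above SCL28.

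**Figure D1:**
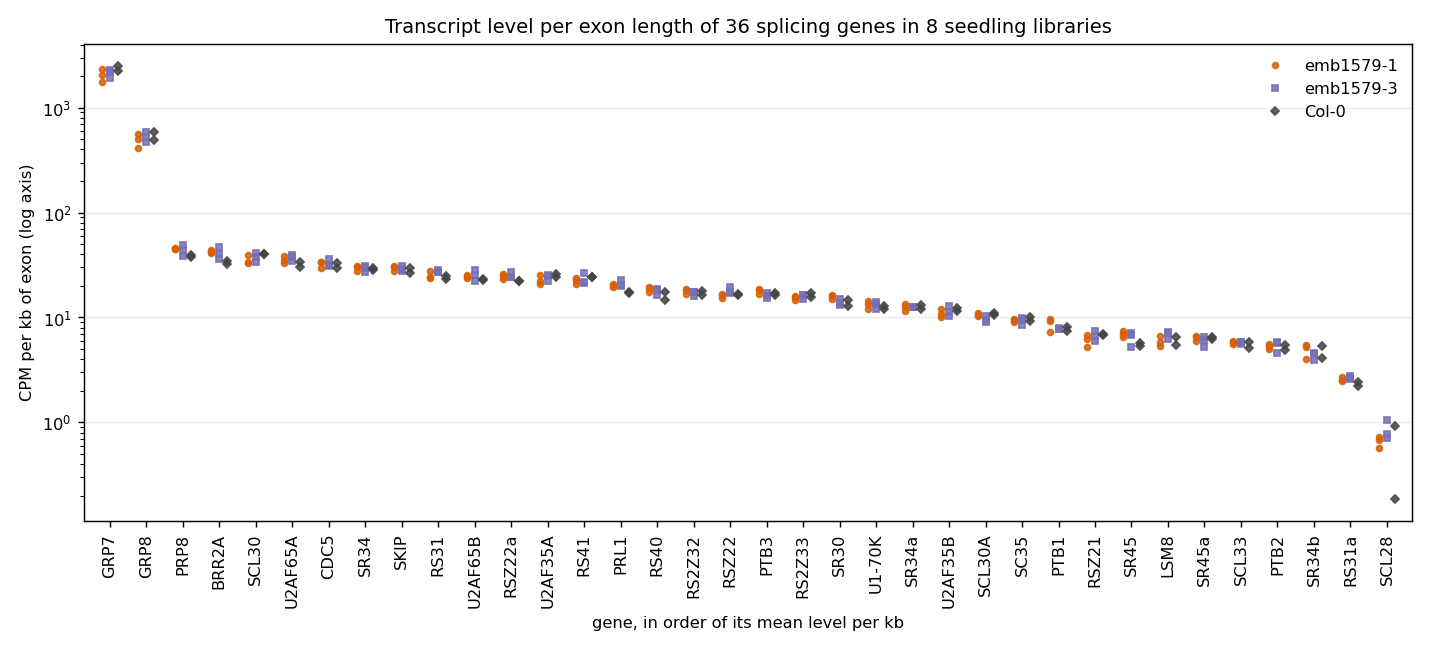
Transcript level of the 36 splicing genes in CPM per kb of exon (log axis), in order of the mean, with a point per library for the libraries labelled emb1579-1, for emb1579-3 and for Col-0. GRP7 and GRP8 stand above all others in the 3 genotypes, RS31a and SCL28 below, and the genotypes overlap for most genes in between.

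Few of the splicing genes differed between the lines and Col-0. In the libraries labelled emb1579-1, 1 of 36 members, BRR2A, passed the test (edgeR's quasi-likelihood test, Benjamini-Hochberg adjusted p under 0.05), and it was higher. Of all genes tested 17.8% passed in this comparison, 8.27% higher and 9.54% lower. In emb1579-3, 2 of 36 members passed, BRR2A and PRL1, both higher, against a background of 20.3%, of which 9.95% were higher and 10.3% lower. No member was lower in either line by this test, and the counts at an unadjusted p under 0.05 were 6 members in the libraries labelled emb1579-1 (16.7%, against 30.1% of all genes) and 4 in emb1579-3 (11.1%, against 32.2%). DESeq2 called the same genes, 1 and 2 of them, while with all 9 libraries neither comparison called a member. A log2 fold change above 0 was found for 24 members (66.7%, against 50.3% of all genes) and for 20 (55.6%, against 49.7%). Both comparisons use the same Col-0 libraries, so the lines are not independent of each other.

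The fold changes were small as well as rarely called. The median log2 fold change of members was 0.06 in the libraries labelled emb1579-1 and 0.04 for emb1579-3, beside 0.00 and -0.00 over all genes. The median size of the change, without its sign, was 0.10 and 0.09 for members and 0.20 and 0.20 for all genes. For 35 of 36 members the 95% interval lay within 1.5-fold in either direction in both comparisons, while 57.3% and 56.3% of all genes had such an interval. The exception in both was SCL28, the member with the lowest level. The median SE was 0.10 for members and 0.14 for all genes in both comparisons, so the shares were taken at unequal precision. Members ran from -0.21 (GRP7) to 0.34 (BRR2A) in the libraries labelled emb1579-1, and from -0.16 (SCL30A) to 0.58 (SCL28) in emb1579-3. By position of the libraries alone, 8 members (22.2%) had every emb1579-1-labelled library above both Col-0 libraries and 3 (8.33%) had every one below, against 21.8% and 22.9% of all genes. In emb1579-3 these counts were 7 members (19.4%) above and 1, SCL30A (2.78%), below, against 24.2% and 24.7%.

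**Figure D2:**
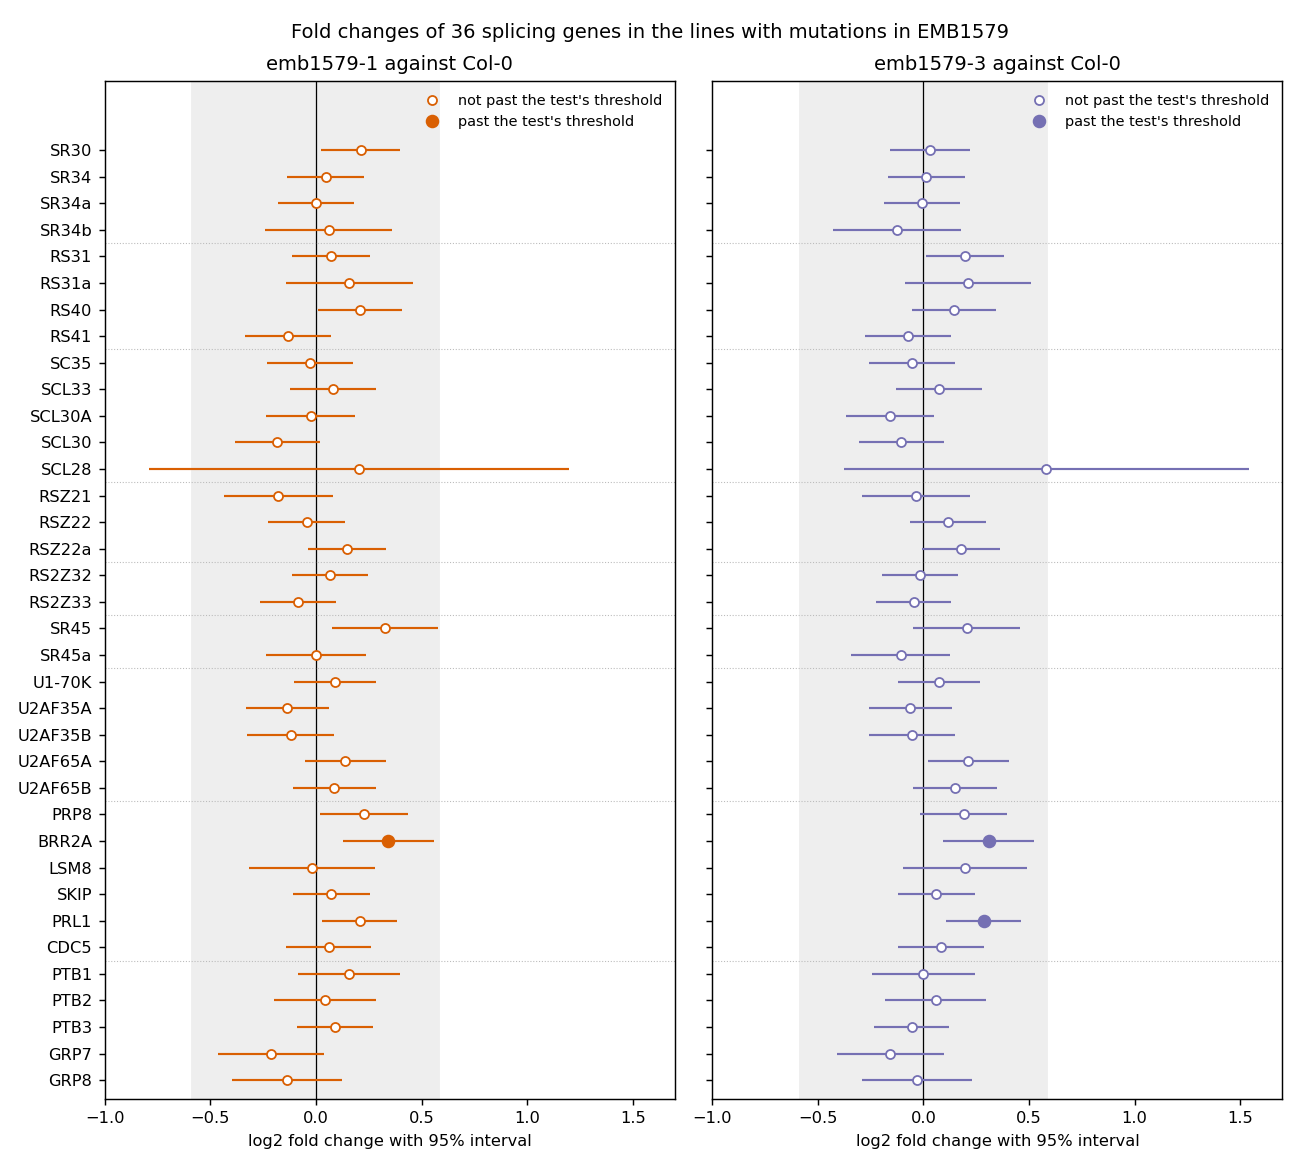
Log2 fold change of each of the 36 genes against Col-0 (horizontal axis, point) with its 95% interval (line), for the libraries labelled emb1579-1 (left) and emb1579-3 (right), with dotted lines between subfamilies and the range of 1.5-fold in grey. BRR2A on both sides and PRL1 on the right are the filled points past the threshold, and every interval but that of SCL28 lies inside the grey range.

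Among the proteins of the U5 and U6 particles and of the MOS4-associated complex (MAC), the plant counterpart of the Prp19 complex, lay all the calls. BRR2A (AT1G20960, annotated symbol emb1507, chr1:7301599-7310271) encodes the U5 helicase that unwinds U4 from U6. It was at 301, 296 and 316 CPM in the libraries labelled emb1579-1, at 293, 261 and 338 CPM in emb1579-3 and at 247 and 233 CPM in Col-0. All 6 libraries of the lines were above both Col-0 libraries, with emb1579-3 replicate 2 the lowest of them. The change was 1.27-fold (95% interval 1.09 to 1.47, log2 0.34, SE 0.10, adjusted p = 0.0256) in the libraries labelled emb1579-1, and 1.24-fold (1.07 to 1.44, log2 0.31, SE 0.10, adjusted p = 0.0398) for emb1579-3. The first call was lost without emb1579-1 replicate 3 (log2 0.31, adjusted p = 0.0967) or Col-0 replicate 2 (log2 0.29, adjusted p = 0.166), and with all 9 libraries (0.88, 0.819), and its adjusted p over the alternatives ran from 0.00665 to 0.819. The second rests on thin support, as it was kept in 5 of 15 alternative settings, with log2 values of 0.20 to 0.39, or 0.84 with all 9 libraries, and adjusted p between 0.0156 and 0.803. BRR2A overlaps AT1G20950 on the same strand, so its count could hold reads of that gene.

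PRL1 (AT4G15900, chr4:9023666-9027808) encodes a WD40-repeat protein of the MAC, and its mutants are known for short roots and altered sugar and stress responses. It was at 37.4, 38.4 and 40.1 CPM in the libraries labelled emb1579-1, at 38.3, 39.7 and 44.3 CPM in emb1579-3 and at 32.8 and 34.1 CPM in Col-0. Here too all 6 were above both Col-0 libraries, and emb1579-3 replicate 3 was the highest. PRL1 rose 1.22-fold in emb1579-3 (95% interval 1.08 to 1.38, log2 0.28, SE 0.08, adjusted p = 0.0228). In the libraries labelled emb1579-1 the log2 fold change was 0.21 (SE 0.09, adjusted p = 0.102), and the lines did not differ from each other by the test (log2 0.08 for emb1579-3 over emb1579-1, 95% interval -0.08 to 0.24, adjusted p = 0.834). The call in emb1579-3 was lost without emb1579-3 replicate 3 (log2 0.22, adjusted p = 0.102), Col-0 replicate 1 (0.27, 0.109) or Col-0 replicate 2 (0.31, 0.0761). It was also lost with all 9 libraries (0.69, 0.784), and its adjusted p over the 15 alternatives ran from 0.0137 to 0.784.

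The remaining members of this group did not pass. PRP8 (AT1G80070, annotated symbol SUS2) was at 347, 335 and 337 CPM in the libraries labelled emb1579-1, at 334, 291 and 367 CPM in emb1579-3 and at 297 and 283 CPM in Col-0. Libraries labelled emb1579-1 were all above Col-0, while emb1579-3 replicate 2 lay between the Col-0 libraries, and the log2 fold changes were 0.23 (adjusted p = 0.125) and 0.19 (adjusted p = 0.197). LSM8, the subunit particular to the nuclear LSm ring on U6, was at 5.28, 5.78 and 6.63 CPM in the libraries labelled emb1579-1, at 6.26, 7.23 and 7.04 CPM in emb1579-3 and at 5.43 and 6.47 CPM in Col-0, and its groups overlapped. CDC5, a Myb-like core protein of the MAC, and SKIP, a spliceosome protein known for splicing of clock genes, stayed within 93.9 to 117 and 64.7 to 76.2 CPM over the 8 libraries. Their log2 fold changes were 0.06 and 0.07 in the libraries labelled emb1579-1, and 0.08 and 0.06 for emb1579-3. The median of this group of 6 was 0.14 in the libraries labelled emb1579-1 and 0.19 for emb1579-3, the highest median of the 9 groups in emb1579-3.

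**Figure D3:**
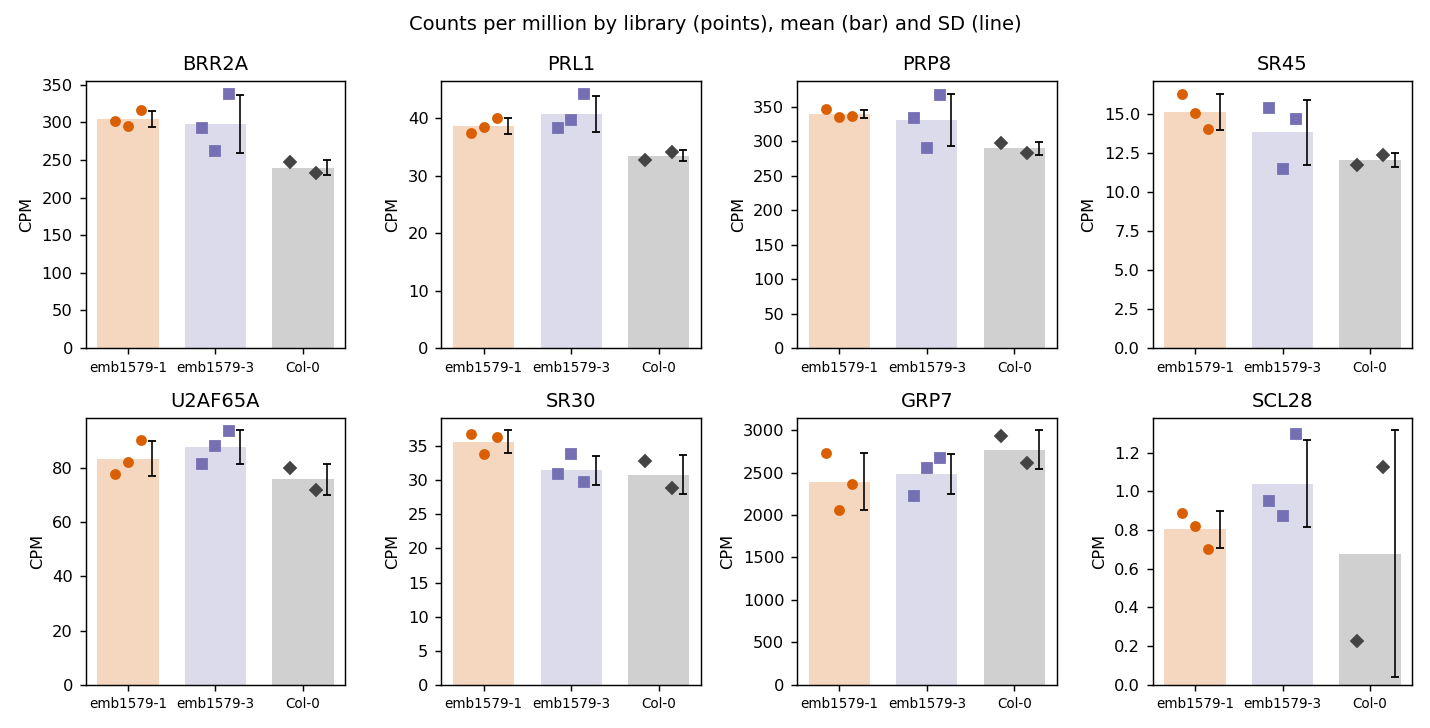
CPM of 8 of the splicing genes (vertical axes from 0) in the libraries labelled emb1579-1, in emb1579-3 and in Col-0, with a point per library, bars at the mean and black lines of 1 SD. For BRR2A and PRL1 all points of both lines lie above the Col-0 points, for the other genes at least 1 line overlaps Col-0, and for SCL28 the 2 Col-0 libraries lie far apart.

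At the splice sites, the U1 and U2AF proteins showed no call. U1-70K, the U1 protein that SR proteins contact, was at 38.6, 32.8 and 36.2 CPM in the libraries labelled emb1579-1, at 32.5, 35.97 and 38.04 CPM in emb1579-3 and at 35.1 and 32.4 CPM in Col-0, with all groups overlapping and log2 fold changes of 0.09 and 0.07. U2AF65A, the large U2AF subunit that binds the pyrimidine tract, was at 77.7, 82.04 and 90.2 CPM in the libraries labelled emb1579-1, at 81.3, 87.8 and 93.5 CPM in emb1579-3 and at 79.7 and 71.6 CPM in Col-0. Every emb1579-3 library was above Col-0, and its log2 fold change of 0.21 (SE 0.09) had the smallest p after those of BRR2A and PRL1 in that comparison but an adjusted p of 0.116. In the libraries labelled emb1579-1 the value was 0.14 (adjusted p = 0.332). AT1G60900, annotated as another large U2AF subunit and called U2AF65B here, had log2 fold changes of 0.09 and 0.15. The small subunits, which read the AG at the 3′ splice site, had negative values that did not pass: -0.14 and -0.06 for U2AF35A and -0.12 and -0.05 for U2AF35B. U2AF35B, the least abundant of this group per kb, was at 31.1, 29.3 and 34.97 CPM in the libraries labelled emb1579-1, at 30.02, 32.6 and 37.04 CPM in emb1579-3 and at 35.4 and 33.7 CPM in Col-0. It overlaps 3 genes on the opposite strand, and the strand setting of the counting was not stated in the sources, so its value is uncertain.

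The SR subfamily holds SR30, SR34, SR34a and SR34b, relatives of human SRSF1, and none passed. SR30, whose own transcript is known to be alternatively spliced, was at 36.8, 33.8 and 36.4 CPM in the libraries labelled emb1579-1, at 30.9, 33.9 and 29.7 CPM in emb1579-3 and at 32.9 and 28.8 CPM in Col-0. Libraries labelled emb1579-1 were all above Col-0 and those of emb1579-3 overlapped both. SR30 gave the smallest p of the members between the lines, with a log2 difference of -0.18 for emb1579-3 over emb1579-1 (SE 0.08, unadjusted p = 0.0383, adjusted p = 0.484), and 0.21 (adjusted p = 0.116) and 0.03 (0.855) against Col-0. SR34, the most abundant of the subfamily per kb, was at 56.1, 63.3 and 61.9 CPM in the libraries labelled emb1579-1, at 54.5, 59.9 and 62.99 CPM in emb1579-3 and at 60.1 and 57.1 CPM in Col-0, and its interval reached no further than 0.9099 to 1.17-fold and 0.8898 to 1.15-fold. SR34b, the least abundant, was at 8.99, 11.8 and 12.3 CPM in the libraries labelled emb1579-1, at 10.1, 10.2 and 8.87 CPM in emb1579-3 and at 12.1 and 9.21 CPM in Col-0. Neither gene separated the genotypes, and SR34a ranged from 29.1 to 33.9 CPM over the 8 libraries.

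The plant-specific RS subfamily was the group with the next highest median in emb1579-3, at 0.17, beside 0.11 in the libraries labelled emb1579-1, again without a call. RS31 was at 29.3, 28.5 and 33.2 CPM in the libraries labelled emb1579-1, at 32.9, 32.3 and 34.2 CPM in emb1579-3 and at 29.9 and 27.8 CPM in Col-0. All emb1579-3 libraries were above Col-0 (log2 0.20, SE 0.09, adjusted p = 0.125) and the other line overlapped it (log2 0.07, adjusted p = 0.642). RS31a, its less abundant paralogue, was at 4.48, 4.604 and 4.902 CPM in the libraries labelled emb1579-1, at 4.96, 4.86 and 4.68 CPM in emb1579-3 and at 4.37 and 4.0 CPM in Col-0, all 6 libraries of the lines above Col-0, with log2 values of 0.16 and 0.21 and adjusted p of 0.508 and 0.339. RS40 and RS41, which have also been linked to microRNA processing, gave opposite signs that did not pass: 0.21 and 0.14 for RS40, -0.13 and -0.08 for RS41. RS31a, RS40 and RS41 each overlap a gene on the opposite strand.

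Of SC35 and the SC35-like (SCL) proteins, relatives of human SRSF2, none passed. SCL30, the most abundant, was at 42.3, 42.9 and 50.4 CPM in the libraries labelled emb1579-1, at 42.8, 48.3 and 52.1 CPM in emb1579-3 and at 51.6 and 51.01 CPM in Col-0. Libraries labelled emb1579-1 were all below Col-0 and those of emb1579-3 overlapped it, with log2 fold changes of -0.18 (adjusted p = 0.209) and -0.11 (0.497). SCL28, the least abundant of all 36, was at 0.887, 0.821 and 0.7003 CPM in the libraries labelled emb1579-1, at 0.949, 0.872 and 1.296 CPM in emb1579-3 and at 0.225 and 1.13 CPM in Col-0. All libraries of the lines lay between the 2 Col-0 libraries except emb1579-3 replicate 3, and the fold changes of 0.20 (SE 0.47) and 0.58 (SE 0.45) depend on which Col-0 library is used. Without Col-0 replicate 2 the values were 1.81 (adjusted p = 0.0394) and 2.19 (0.0107), and with replicate 1 of Col-0 left out instead they came to -0.47 (0.461) and -0.10 (0.905). Over all alternatives the adjusted p of SCL28 ran from 0.0394 to 0.907 and from 0.0107 to 0.905. In Col-0 replicate 2, 4.93% of nuclear loci had no count, against 28.3% to 30.7% in the other 7 libraries, and the part of this in the value of SCL28 was not tested. SC35, SCL33 and SCL30A had log2 values of -0.03, 0.08 and -0.02 in the libraries labelled emb1579-1, and of -0.05, 0.07 and -0.16 for emb1579-3.

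The zinc-knuckle SR proteins did not pass either. RSZ22a was the most abundant of the RSZ subfamily (relatives of human SRSF7) per kb, while RSZ22 had more CPM in every library. RSZ22a was at 23.3, 24.9 and 25.9 CPM in the libraries labelled emb1579-1, at 24.4, 24.5 and 26.8 CPM in emb1579-3 and at 22.4 and 22.2 CPM in Col-0. All 6 libraries of the lines were above Col-0 for RSZ22a, with log2 values of 0.15 (adjusted p = 0.289) and 0.18 (0.172). RSZ22 was at 29.7, 27.5 and 30.6 CPM in the libraries labelled emb1579-1, at 30.8, 31.98 and 35.2 CPM in emb1579-3 and at 30.3 and 30.04 CPM in Col-0. It was the 1 member with every emb1579-3 library above every emb1579-1-labelled library (2.78%, against 7.43% of all genes), with a log2 difference of 0.16 between the lines (adjusted p = 0.557). RSZ21, the least abundant, was at 8.87, 11.6 and 10.7 CPM in the libraries labelled emb1579-1, at 10.3, 11.3 and 12.7 CPM in emb1579-3 and at 11.6 and 11.9 CPM in Col-0. Libraries labelled emb1579-1 all lay below Col-0, replicate 2 only just, and those of emb1579-3 overlapped it. The log2 fold changes of RSZ21 were -0.18 (adjusted p = 0.361) and -0.04 (0.874). RS2Z32 and RS2Z33 carry a pair of zinc knuckles and have no animal counterpart. RS2Z32 was at 33.5, 30.8 and 33.9 CPM in the libraries labelled emb1579-1, at 29.1, 31.7 and 31.8 CPM in emb1579-3 and at 32.5 and 29.96 CPM in Col-0. RS2Z33 was at 25.4, 26.9 and 27.6 CPM in the libraries labelled emb1579-1, at 26.01, 28.2 and 27.9 CPM in emb1579-3 and at 29.4 and 27.2 CPM in Col-0. Both overlapped between all genotypes, and both overlap other genes on the opposite strand.

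SR45, which carries an RS domain on either side of its RNA-binding domain and contacts U1-70K and U2AF35, gave the second smallest p in the libraries labelled emb1579-1. It was at 16.3, 15.1 and 14.01 CPM there, at 15.4, 11.5 and 14.7 CPM in emb1579-3 and at 11.7 and 12.3 CPM in Col-0. Libraries labelled emb1579-1 were all above Col-0, while emb1579-3 replicate 2 was below both Col-0 libraries. The log2 fold changes were 0.33 (SE 0.12, adjusted p = 0.0671) and 0.20 (SE 0.12, adjusted p = 0.259), neither past the threshold, and without a filter on low counts the first had an adjusted p of 0.035, in a range of 0.035 to 0.534 over its alternatives. SR45a, a stress-responsive SR-like protein, was at 13.3, 12.95 and 11.9 CPM in the libraries labelled emb1579-1, at 10.3, 12.1 and 13.02 CPM in emb1579-3 and at 12.4 and 13.02 CPM in Col-0, with overlapping groups and log2 values of 0.00 and -0.11.

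GRP7 and GRP8 had the highest levels, wide spread between libraries and no call. GRP7 was at 2736, 2064 and 2368 CPM in the libraries labelled emb1579-1, at 2225, 2557 and 2669 CPM in emb1579-3 and at 2929 and 2608 CPM in Col-0. GRP8 (annotated symbol CCR1) was at 615, 459.9 and 551 CPM in the libraries labelled emb1579-1, at 525, 580.4 and 644 CPM in emb1579-3 and at 647 and 545 CPM in Col-0. In both genes the libraries of the lines overlapped the Col-0 range, and replicate 2 of the libraries labelled emb1579-1 was the lowest of the 8. The log2 fold changes were -0.21 (SE 0.12, adjusted p = 0.249) and -0.16 (SE 0.12, adjusted p = 0.406) for GRP7, and -0.14 and -0.03 for GRP8. GRP7 and GRP8 are known to bind each other's transcripts and lower them through an alternatively spliced form, and the ratio of their levels per kb was 4.18 ± 0.10 in the libraries labelled emb1579-1 (SD, n = 3), 4.04 ± 0.12 in emb1579-3 (n = 3) and 4.42 ± 0.17 in Col-0 (n = 2). PTB3, which is more distant in sequence from PTB1 and PTB2, was at 31.9, 35.6 and 35.1 CPM in the libraries labelled emb1579-1, at 30.6, 29.4 and 32.7 CPM in emb1579-3 and at 32.9 and 31.4 CPM in Col-0. Its difference between the lines, -0.15 for emb1579-3 over emb1579-1, was among the 3 with the smallest p and did not pass (adjusted p = 0.607). PTB2, the least abundant of this group per kb, was at 12.8, 11.95 and 13.2 CPM in the libraries labelled emb1579-1, at 10.97, 13.7 and 13.6 CPM in emb1579-3 and at 11.6 and 12.9 CPM in Col-0, and PTB1 ranged from 12.6 to 16.8 CPM, both with overlapping genotypes.

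Between the lines no member passed the test, in a comparison where 0.818% of all genes did and DESeq2 called no member either. A difference above 0 was found for 19 members (52.8%, against 51.3% of all genes), and every emb1579-3 library was below every emb1579-1-labelled library for 0 members, against 7.56% of all genes. At an unadjusted p under 0.05 there was 1 member, SR30 (2.78%, against 9.32% of all genes). The median log2 difference for emb1579-3 over emb1579-1 was 0.02, beside 0.01 over all genes. For 35 of 36 members the interval lay within 1.5-fold, against 71.4% of all genes, although EMB1579 itself differed by -5.04 (log2) between these libraries. A missed threshold does not show equal levels, and the intervals give the size that remains possible for each gene.

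Within pairs of related genes the partner with the higher level per kb of exon was the same in every library. The length is merged over all annotated transcripts, and it decides the order in some pairs. By mean CPM alone RSZ22 was above RSZ22a (30.2 and 22.3 CPM in Col-0) and SCL33 above SCL30A (14.4 and 13.8 CPM). U2AF35A and U2AF35B were nearly equal (35.4 and 34.5 CPM in Col-0), with exons of 1405 and 2897 bases. The other pairs kept their order by mean CPM. SR34 stood above SR34b by a ratio per kb of 5.51 to 7.86 over the 8 libraries, RS31 above RS31a by 9.31 to 10.96, U2AF35A above U2AF35B by 1.95 to 2.24, U2AF65A above U2AF65B by 1.33 to 1.55, and PTB1 above PTB2 by 1.33 to 1.79. Per kb, the first-named was the lower for SR30 against SR34 (0.424 to 0.590), RS40 against RS41 (0.602 to 0.941), RSZ22 against RSZ22a (0.609 to 0.744), SCL33 against SCL30A (0.480 to 0.622) and RS2Z33 against RS2Z32 (0.803 to 0.959). In 3 pairs all 6 libraries of the lines lay below both Col-0 libraries. For RSZ22 against RSZ22a they lay at 0.609 to 0.722, against 0.744 in each Col-0 library. For RS2Z33 against RS2Z32 they lay at 0.803 to 0.947, against 0.956 and 0.959 in Col-0, and for GRP7 against GRP8 at 3.93 to 4.26, against 4.30 and 4.54. For RS40 against RS41 the ratio was 0.837 ± 0.092 in the libraries labelled emb1579-1 (SD, n = 3), 0.771 ± 0.069 in emb1579-3 (n = 3) and 0.659 ± 0.081 in Col-0 (n = 2), all emb1579-1-labelled libraries above Col-0 and those of emb1579-3 overlapping it. These ratios were not tested, and no share of separated ratios was taken over other pairs of genes. Of single genes, 22.9% had every emb1579-1-labelled library below both Col-0 libraries, and 24.7% had every emb1579-3 library below. These shares are for each line by itself and not for both together, so they are no background for the 3 pairs. Reads shared between close copies could also move the ratios.

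**Figure D4:**
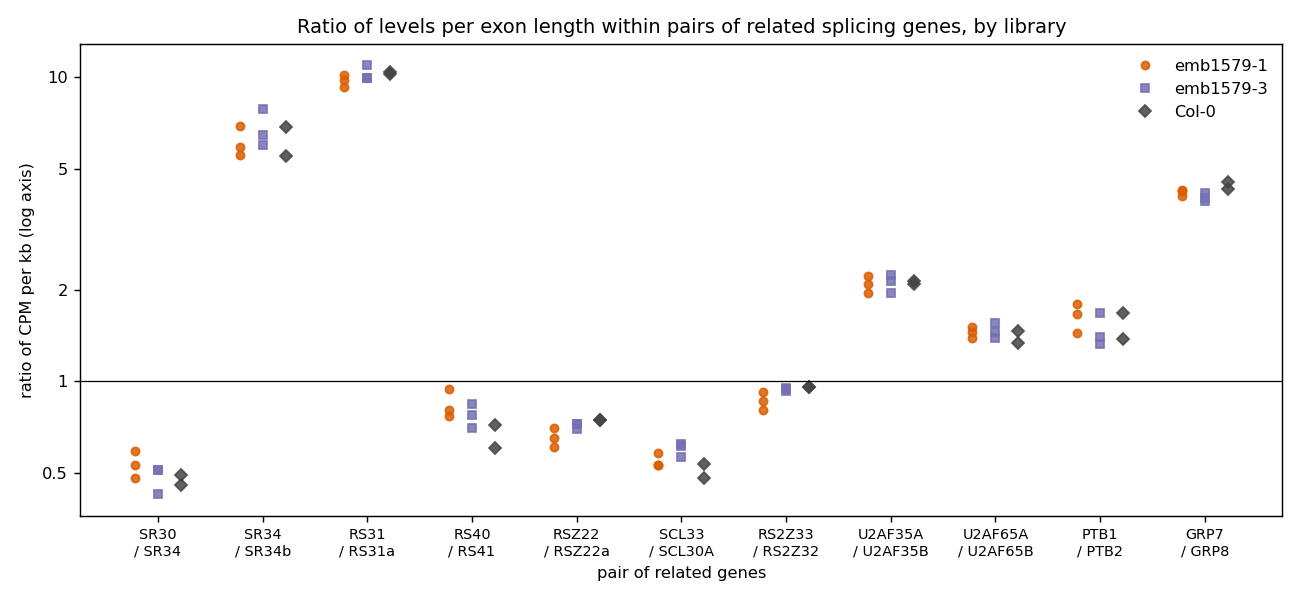
Ratio of CPM per kb of exon within 11 pairs of related splicing genes (log axis, line at 1), with a point per library for the libraries labelled emb1579-1, for emb1579-3 and for Col-0. No pair crosses 1 in any library, and RS31 over RS31a is the most uneven.

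The annotation gives these genes more transcript forms than most. Several transcripts are annotated for 28 of 36 members (77.8%), against 47.5% of 20099 tested protein-coding nuclear genes, with a median of 3 against 1. RS40 has 8, and SR34a, RS41, SCL33 and SR45 have 7 each, while RS31, SCL30A, SCL30, RSZ22a, U2AF65B, PRP8, PRL1 and CDC5 have 1. Another gene overlaps 12 members (33.3%), against 31.1% of the tested genes. The counts do not separate the forms, so a shift between them at equal total would not be seen.

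Further genes of the splicing machinery, in 7 lists, were tested in the same way. Of 109 such genes 108 passed the filter on low counts, and 8 of them rose and 1 fell in the libraries labelled emb1579-1, while 12 rose and 1 fell in emb1579-3. The shares that rose are near the background of 8.27% and 9.95% for higher genes. The shares that fell are below the background of 9.54% and 10.3% for lower genes. A log2 fold change above 0 was found for 91 and 90 of the 108 genes, against 50.3% and 49.7% of all genes. The median log2 fold change was 0.12 in both lines. The libraries lay on the upper side more often. Every library was above both Col-0 libraries for 45 of 108 genes (41.7%) in each line, against 21.8% and 24.2% of all genes. Every library was below both for 2 (1.85%) and 5 (4.63%), against 22.9% and 24.7% of all genes. The counts depend on the libraries, with 3 to 17 calls in the libraries labelled emb1579-1 and 4 to 20 for emb1579-3 when a library was left out, and 0 in both with all 9. The lowest were without emb1579-1 replicate 3 or Col-0 replicate 2 (3 each) and without Col-0 replicate 1 (4), and the highest without emb1579-1 replicate 1 (17 and 20).

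The Sm and LSm proteins, most of which form the rings around the spliceosomal RNAs, are the longest list. LSM1A and LSM1B are also in it, and neither passed in either line. Of the list, 4 of 23 (17.4%) rose in the libraries labelled emb1579-1 and 6 of 23 (26.1%) for emb1579-3, against 8.27% and 9.95% of all genes, with medians of 0.16 and 0.27. In the MAC list of 11 the counts were 1 (9.09%) and 3 (27.3%). Values in parentheses from here on are the log2 fold change and its adjusted p, or the adjusted p alone. RUXF, the SmF protein, was at 16.1, 15.1 and 15.98 CPM in the libraries labelled emb1579-1, at 16.3, 14.4 and 16.3 CPM in emb1579-3 and at 11.9 and 11.6 CPM in Col-0, and rose by a log2 of 0.42 (adjusted p = 0.00627) and 0.42 (0.00567). AT1G20580, annotated as a small nuclear ribonucleoprotein, rose by 0.32 (0.024) and 0.42 (0.00399), and SNRNP-G by 0.31 (0.0463) and 0.40 (0.0103). All 3 were above Col-0 in every library of both lines. SmD3 (0.32, adjusted p = 0.0436), AT2G18740 (0.39, 0.0303) and LSM5 (0.43, 0.0479) rose in emb1579-3, where LSM6B had 0.35 (0.064). LSM6B rose in the libraries labelled emb1579-1 (0.46, 0.0172), where SmD3, AT2G18740 and LSM5 had 0.11, 0.28 and 0.32. LSM8, the Sm-like protein among the 36, gave -0.02 and 0.20.

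In the U4/U6.U5 list of 16, AT5G25230, annotated as an elongation factor G family protein, rose most, by a log2 of 1.48 (SE 0.34, adjusted p = 0.00517) and 1.33 (SE 0.34, adjusted p = 0.0098). It is rare, at 2.26, 1.64 and 1.94 CPM in the libraries labelled emb1579-1 and 2.28, 1.703 and 1.26 CPM in emb1579-3, against 0.418 and 0.9396 CPM in Col-0. The size depends on which Col-0 library is used: the values were 2.20 and 2.04 without Col-0 replicate 2, and 1.05 (0.0476) and 0.90 (0.096) without replicate 1 of Col-0. The call in emb1579-3 was also lost without emb1579-3 replicate 1 (1.07, 0.0542), and over the alternatives the adjusted p ran from 3.24e-06 to 0.454 and from 4.19e-05 to 0.51. CLO, the U5 GTPase, rose in the libraries labelled emb1579-1 (0.26, 0.0392) and had 0.23 (0.0702) in emb1579-3. AT2G42270, annotated as a U5 helicase like BRR2A, had 0.25 (0.108) and 0.20 (0.198), and AT4G38780, annotated as a splicing factor like PRP8, had -0.31 (0.31) and -0.26 (0.399), neither past the threshold. In the MAC list, PRL2, the paralogue of PRL1, rose in both lines (0.80, 0.0348, and 0.85, 0.0222) at 2.02, 2.39 and 3.54 CPM in the libraries labelled emb1579-1 and 2.81, 2.201 and 3.16 CPM in emb1579-3, against 1.35 and 1.66 CPM in Col-0. MOS4 (0.35, 0.0113) and EMB2765 (0.29, 0.0257) rose in emb1579-3, and had 0.21 (0.132) and 0.24 (0.0706) in the libraries labelled emb1579-1.

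In the U1, U2 and U12 list of 22, AT2G43370, an RNA-recognition-motif protein, fell in both lines, by a log2 of -0.49 (adjusted p = 0.021) and -0.42 (0.0422). It was at 3.87, 3.64 and 4.12 CPM in the libraries labelled emb1579-1, at 4.22, 3.904 and 4.09 CPM in emb1579-3 and at 5.396 and 5.503 CPM in Col-0. ATO, a splicing factor subunit of the SF3A complex, rose in emb1579-3 (0.33, 0.045), with 0.18 (0.319) in the libraries labelled emb1579-1. Of 12 SR protein kinases and import factors, PRMT5, the arginine methyltransferase that modifies Sm proteins, rose in emb1579-3 (0.33, 0.0373) and had 0.29 (0.0704) in the libraries labelled emb1579-1. Of 14 other regulators, CBP80, the large subunit of the nuclear cap-binding complex, rose in the libraries labelled emb1579-1 (0.28, 0.0236) and had 0.17 (0.149) in emb1579-3. None of 10 exon junction and nonsense-mediated decay genes passed, and the smallest p there belonged to MAGO in the libraries labelled emb1579-1 (0.16, 0.213) and to EIF4A-III in emb1579-3 (0.17, 0.147). No gene of the 7 lists passed between the lines. The calls differed in how many of the alternative settings kept them: in the libraries labelled emb1579-1, AT5G25230 was kept in 13 of 14, PRL2 in 9 of 14 and RUXF in 13 of 15, but CLO in 4 and SNRNP-G in 5 of 15. Also in these libraries, LSM6B was kept in 12 of 15, AT1G20580 in 11, CBP80 in 10 and AT2G43370 in 9 of 14. In emb1579-3, AT1G20580 was kept in 14 of 15 and RUXF and SNRNP-G in 13, but LSM5 and ATO in 5. MOS4 was kept there in 12 of 15, EMB2765 in 11, AT2G18740 in 9, PRMT5 in 7 and SmD3 in 6. AT5G25230 was kept in 11 of 14, PRL2 in 8 of 14 and AT2G43370 in 5 of 14.

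**Figure D5:**
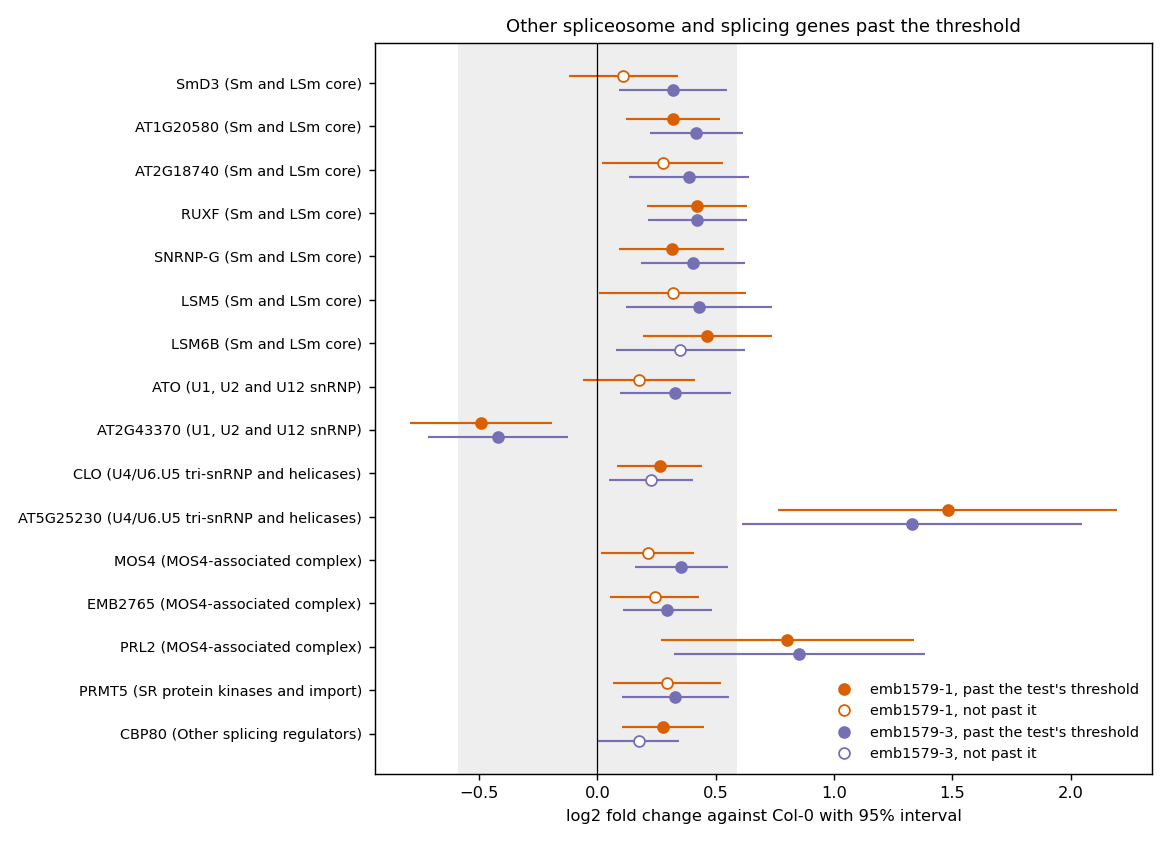
Log2 fold change against Col-0 with 95% interval for the 16 genes of 7 further splicing lists that passed the test in at least 1 line, the libraries labelled emb1579-1 above emb1579-3 for each gene, filled where past the threshold, with 1.5-fold in grey. AT5G25230 and PRL2 lie farthest to the right and AT2G43370 is the gene to the left of 0.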

How the data were processed

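The authors deposited 1 table of raw counts per gene, 33602 loci by 9 libraries. FastQC, HISAT2, Cufflinks, Cuffdiff and the build TAIR10 are named by the submitters' processing notes. How reads were counted, with which strand setting and treatment of shared reads, was not given in the sources used here. Columns of Col-0 and of emb1579-1 carry the names in the labels. The other 3 columns carry another number than the label of emb1579-3 and were assigned to it by elimination. Names, exon lengths and overlaps came from RefSeq TAIR10.1, which lacked 767 loci. Exon length was merged over all annotated transcripts of a gene.

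From the deposited counts, edgeR 4.0.16 (R 4.3.3, limma 3.58.1) was run on 8 libraries with TMM factors, its default filter by genotype, robust dispersions, a coefficient for each genotype, no covariate and the quasi-likelihood F-test. It tested 20668 genes, with a common biological coefficient of variation of 0.0904 and 5 residual degrees of freedom, and Benjamini-Hochberg adjusted p-values over all of them were held to a threshold of 0.05. The SE is the size of the log2 fold change over the square root of F, and 95% intervals use its t quantile. No pair of libraries of 1 genotype agreed within sampling noise (chi-square per gene of at least 3.81). Alternatives were DESeq2 1.42.0, other filters, upper quartile factors, nuclear loci only, all 9 libraries, a replicate block and leaving out each library.

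The members, the 7 lists and the design were chosen with earlier results of these data known. Values per library are printed by rule: members past the threshold, the 3 smallest p of each comparison, the most and least abundant per kb of each subfamily, and GRP7, GRP8, SR45, SR45a and U1-70K. The other members are given by range or fold change. From the 7 lists, genes past the threshold are named, or the smallest p where there is none. AT2G42270 and AT4G38780 were named as relatives of BRR2A and PRP8 after their values were seen.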

Additional observations from a re-analysis of the deposited data

Results flagged for a closer look

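Col-0 replicate 3 is in no comparison above, and 2 members stood out in it. RS31a had 55 counts there, 46.6 CPM on the library's own total, against 4.06 and 3.97 CPM in the other Col-0 libraries. U2AF35B had 77 counts, 65.3 CPM, against 33.0 and 33.4 CPM. The other 34 members had 0 to 9 counts in that library, and 7 of them had 0. Both RS31a and U2AF35B overlap genes on the opposite strand (AT2G09740 and AT2G46600 for RS31a, AT5G06395, AT5G42810 and AT5G42825 for U2AF35B), and the part of these genes in the 2 values was not tested.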

How the results depend on the processing

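With all 9 libraries, members called against Col-0 numbered 0 for the libraries labelled emb1579-1 and 0 for emb1579-3, the member medians were 0.35 and 0.34, members with an interval within 1.5-fold numbered 5 in each of the 3 comparisons, calls in the 7 wider lists numbered 0 and 0, and EMB1579 had a log2 fold change of 0.35 in the libraries labelled emb1579-1 and of -5.05 between the lines (adjusted p = 0.112). Without a filter on low counts, members called in the libraries labelled emb1579-1 were 2 (SR45 and BRR2A). With at least 10 CPM in 3 libraries, 33 members were tested, 1 was called in emb1579-3 (PRL1), and the wider lists gave 4 and 5 calls. With upper quartile factors, members called in emb1579-3 were 1 (PRL1) and the wider lists gave 8, and DESeq2 also gave 8 there. The causes were not tested. Leaving out a library gave 0 to 2 members called in either line against Col-0, a member median of -0.020 to 0.089 in emb1579-3, and 3 to 17 and 4 to 20 calls in the wider lists. The members called were then BRR2A, PRL1, SR45, RS40 and SCL28 on the higher side, with GRP7 lower without emb1579-1 replicate 1. With the replicate number as a block, members called were 2 in the libraries labelled emb1579-1 (BRR2A higher, SCL30 lower at log2 -0.26, adjusted p = 0.0327) and 1 in emb1579-3 (PRL1), and 0 between the lines. Whether the numbers pair the samples was not settled. Deviations of same-numbered libraries from the mean of their genotype correlated at -0.11 to 0.14 over 7 pairs. Those of other numbers correlated at -0.18 to 0.11 over 14. The deviations of the 2 Col-0 libraries mirror each other, so these correlations are not independent and cannot exclude a pairing. Of 1611 values of the members' 108 log2 fold changes under the alternatives, 1494 kept their direction and call or moved by less than their spread, 93 moved further (55 of them with all 9 libraries), 17 lost and 7 gained a call, and no call reversed. Both comparisons rest on 2 Col-0 libraries, with 1 spread per gene estimated over all 8. When a library was left out of Col-0, the lone one was taken to vary like the other genotypes.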
